A study of Homo sapiens with 9 samples.

Results

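DNA mismatch repair removes the wrong bases and small loops that DNA polymerases leave behind during replication, and 8 genes of this repair and of the replicative polymerases it follows are described here: MSH3, MSH6, PMS1, PMS2, MLH3, EXO1, POLE and POLD1. They were chosen by symbol. All 8 were found among the 58920 genes listed in the count tables, and all 8 were among the 19102 genes that had at least 10 counts over the 9 libraries and were tested.

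RNA from 3 lines of LIM1215, an established human colorectal cancer cell line, was sequenced as stranded poly(A) libraries, with 3 libraries for each line that the study calls technical replicates. LIM1215-R1 and LIM1215-R2 are populations, not clones, that grew out in parallel under rising doses of cetuximab, an antibody against the EGF receptor. LIM1215-parental cells were kept alongside for the same time without the antibody. All libraries came from cells that the labels give as untreated, and the study describes the line as microsatellite unstable. The p-values below measure the spread between libraries, which may be technical, and culture or harvest cannot be told apart from the line.

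In mismatch repair, MSH6 and MSH3 are alternative partners in MutS complexes that find the error. The MSH6 complex binds mispaired bases and the smallest loops, and the MSH3 complex binds loops of several bases, as arise in microsatellites. MutL complexes are then recruited: the one with PMS2 nicks the new strand, the one with PMS1 has no established part in the reaction, and the one with MLH3 acts mainly in meiotic crossing over. EXO1 digests the nicked strand, and the gap is filled by DNA polymerase delta, whose catalytic subunit is POLD1. POLE is the catalytic subunit of polymerase epsilon, which copies the leading strand. In the colon, inherited loss of mismatch repair predisposes to cancers with unstable microsatellites, and changes in the proofreading domains of POLE and POLD1 to cancers with very many base substitutions.

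The members lie on 7 chromosomes. In the RefSeq annotation of GRCh38, the gene bodies are at chr5:80654652-80876815 on the plus strand for MSH3, chr2:47783145-47810101 on the plus strand for MSH6, chr2:189784450-189877629 on the plus strand for PMS1 and chr7:5970925-6009106 on the minus strand for PMS2. MLH3 is at chr14:75013775-75051467 on the minus strand, EXO1 at chr1:241847986-241889939 on the plus strand, POLE at chr12:132623762-132687342 on the minus strand and POLD1 at chr19:50384323-50418018 on the plus strand.

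E2F factors drive many genes of DNA replication, so the start of each gene was searched, on both strands, for the E2F motifs TTTCGCGC, TTTGGCGC, TTTCCCGC and TTTGCCGC. In windows from 250 bases before to 50 bases after a RefSeq start, 5 of the 8 genes held a match, in 6 of their 14 windows, whereas 3.31% of all 35116 windows held one. The windows of MLH3, POLD1 and PMS1 held none of these letters. The matched stretches of 30 bases are shown 5′ to 3′ on the strand of the gene, with the match in capitals, because they place the motif beside the start of these genes (RefSeq, GRCh38.p14).
MSH3, chr5:80654536-80654565, plus strand, match from 107 to 96 bases before the start: gcggtcaagTTTGGCGCGAAAttgtggccg
MSH6, chr2:47783137-47783166, plus strand, match from base 4 to base 11: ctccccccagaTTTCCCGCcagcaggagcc
PMS2, chr7:6009131-6009160, minus strand, match from 43 to 36 bases before the start: cgggaagtattTTTGCCGCcccgcccggaa
EXO1, chr1:241848197-241848226, plus strand, match from base 5 to base 12: aaaggtcagccTTTCGCGCgctgtgtaggc
POLE, chr12:132687342-132687371, minus strand, match from 18 to 11 bases before the start: tgggtgggagcGCGCCAAAtttctcccctg

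The MSH3 stretch holds 2 overlapping matches, 1 on each strand. The other motifs searched were more common or absent. The GC box GGGCGG lay near 7 of the 8 genes, in 11 of their 14 windows, and in 45.0% of all windows. The CCAAT box lay near 4 of the 8 genes, in 5 of their 14 windows, and in 34.6% of all windows. The CHR motif TTTGAA and the ETS motif CCGGAAG lay near 0 of the 8, against 15.2% and 10.3% of all windows. A match is a description of the letters and not a binding site.

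PMS1, PMS2 and POLE start opposite another gene. PMS1 and ORMDL1, a regulator of sphingolipid synthesis, start 111 bases apart, and POLE and PXMP2, a peroxisomal membrane protein, start 245 bases apart. The bases between both starts are shown on the strand of the member, since each stretch serves a pair of genes whose RNA was counted here, with CCAAT boxes, GC boxes and E2F motifs in capitals (RefSeq, GRCh38.p14).
PMS1, chr2:189784340-189784449, plus strand: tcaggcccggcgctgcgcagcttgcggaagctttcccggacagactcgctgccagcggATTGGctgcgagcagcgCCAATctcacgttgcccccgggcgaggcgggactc
POLE, chr12:132687343-132687586, minus strand: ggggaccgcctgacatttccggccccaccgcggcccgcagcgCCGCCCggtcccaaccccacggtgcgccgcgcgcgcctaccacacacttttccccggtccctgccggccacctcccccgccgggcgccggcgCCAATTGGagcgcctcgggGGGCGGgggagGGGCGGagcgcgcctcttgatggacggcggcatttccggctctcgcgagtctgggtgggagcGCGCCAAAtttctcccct

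Total counts were 13737416 to 18725014 per library, and a gene with 0 counts in a library could still have had up to 0.158 to 0.217 CPM, the level of 3 counts (counting error only). Levels are given as CPM, counts scaled to the size of each library with TMM factors of 0.984 to 1.02. The common biological coefficient of variation was 4.92%, and every pair of replicate libraries differed by more than sampling noise, with a chi-square per degree of freedom of 1.89 to 6.58. Of 8 markers of colorectal epithelium, 7 were detected in every library and KRT20 was at 0 in all 9. Their summed level was 11459 to 11808 CPM in the parental line, 14776 to 15124 in LIM1215-R1 and 13337 to 13766 in LIM1215-R2. KRT8 and KRT18, at means of 5717 and 4131 CPM in parental cells, had the highest levels. Singly, 3 of the 7 were higher and 4 lower in each resistant line at an adjusted p of at most 0.01 (edgeR). Their median log2 fold changes were -0.23 and -0.37. Over all genes tested, 27.3% and 23.8% passed in these comparisons. The 8 markers of fibroblasts, leukocytes and endothelium summed to 1.07 to 3.18 CPM, with 4 to 6 of them at 0 in each library, and PECAM1, an endothelial marker, had 2, 10 and 3 counts in the parental libraries and 0 in all 6 resistant ones. The part of these marker differences in the results was not tested. In bulk RNA, fewer cells of a type and less RNA per cell cannot be told apart.

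All 8 genes were well measured, with counts over the 9 libraries from 3002 for PMS2 to 29524 for POLE and never fewer than 239 in a library. Divided by the length of the canonical GENCODE transcript, the levels in parental cells were highest for MSH6, at 36.9 ± 0.510 CPM per kb (SD, n = 3). POLD1, EXO1 and POLE followed at 29.5 ± 2.50, 29.5 ± 0.625 and 27.5 ± 0.755 CPM per kb, and the ranges of POLD1 overlapped those of the other two. PMS1 stood apart at 10.9 ± 1.41 CPM per kb, and MSH3 at 4.91 ± 0.264. PMS2, at 3.82 ± 0.376, and MLH3, at 3.61 ± 0.136 CPM per kb, were the lowest and did not differ beyond their spread. The polymerase, exonuclease and MSH6 messages were therefore more abundant per length than the messages of all 3 MutL homologues.

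No member reached, with edgeR or DESeq2, the threshold the study used for differentially expressed genes (DEGs), which required an adjusted p up to 0.01 and 1.5 or more on the log2 scale in either direction and which 5.14% of the genes tested reached in LIM1215-R1 and 4.82% in LIM1215-R2 against parental. Without the size requirement, 2 of 8 members passed in LIM1215-R1 cells, where 27.3% of all genes did, namely EXO1, which was higher, and POLE, which was lower. In LIM1215-R2 cells 2 of 8 passed, EXO1 and PMS1, both higher, beside 23.8% of all genes. By direction, 14.0% of all genes were higher and 13.4% lower in LIM1215-R1, and 12.3% and 11.6% in LIM1215-R2 cells. The members thus passed about as often as genes in general, and their changes were small: the median log2 fold change was -0.07 in LIM1215-R1 and 0.09 in LIM1215-R2, beside -0.01 and -0.00 over all genes tested. Genes in general include many of lower level: by level the members ranked from 59.4% (PMS2) to 95.4% (POLE) of the genes tested. Shares among genes of like level were not computed. Between the resistant lines, 1 of 8 passed, PMS1, higher in LIM1215-R2 cells. In that comparison 7.16% of all genes passed, 3.39% higher and 3.77% lower in LIM1215-R2, with 0.764% at the DEG threshold. The adjusted p-values are from edgeR's quasi-likelihood F test, two-sided, adjusted by Benjamini-Hochberg over the 19102 genes tested. Both resistant lines are compared with the same 3 parental libraries.

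**Figure D1:**
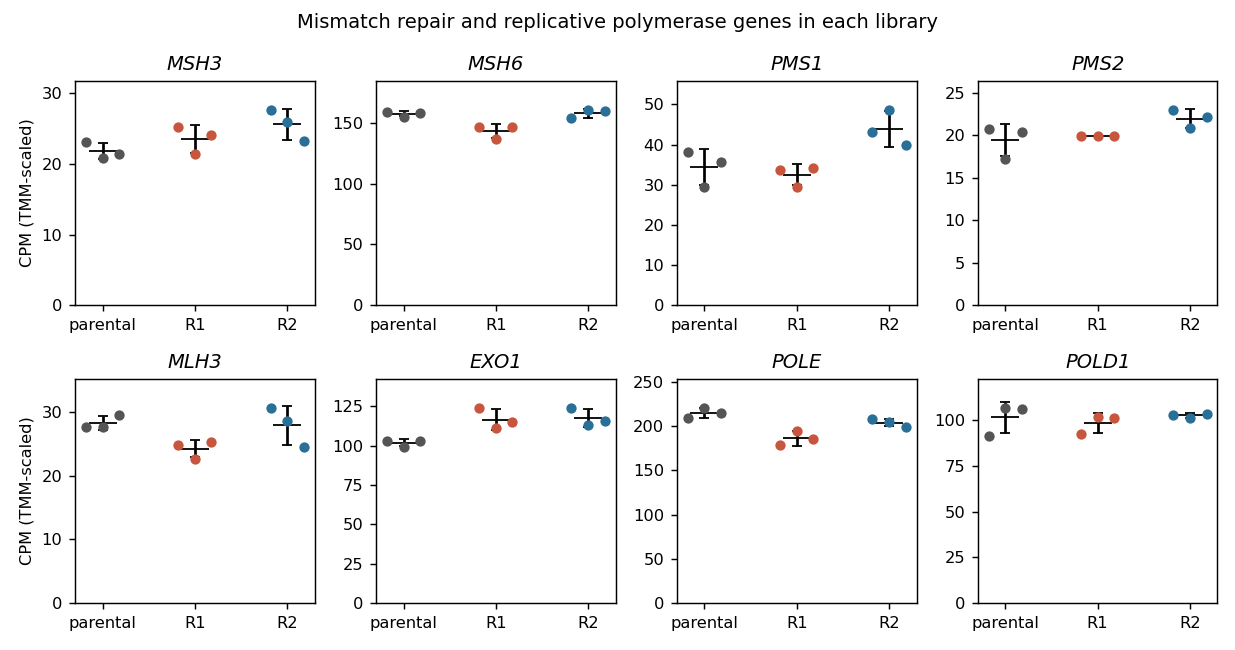
Levels in CPM (vertical axes, from 0) of the 8 genes in each of the 3 libraries per line (parental, R1, R2), with the mean (short line) and SD (bars). EXO1 is higher in all 6 resistant libraries than in any parental one, POLE is lowest in LIM1215-R1 and PMS1 highest in LIM1215-R2.

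EXO1 was the member that differed from parental in both resistant lines. Its level was 103.0, 99.3 and 103.0 CPM in the parental libraries, 123.7, 111.0 and 114.8 CPM in LIM1215-R1 and 123.9, 113.0 and 115.4 CPM in LIM1215-R2. All 6 resistant libraries lay above all 3 parental ones, and both resistant lines overlapped each other almost fully. The log2 fold change was 0.19 (SE 0.0544, adjusted p = 0.00565) in LIM1215-R1 and 0.21 (SE 0.0544, adjusted p = 0.00390) in LIM1215-R2, that is, increases of 14.4% and 15.4%. The call depended on single libraries. It was lost in LIM1215-R1 without any 1 of the parental libraries, R1 replicate 1 or R1 replicate 3, with log2 fold changes of 0.15 to 0.23 and adjusted p-values up to 0.0408 over the 9 fits. It was lost in LIM1215-R2 without any 1 of the parental libraries or R2 replicate 1, with log2 fold changes of 0.17 to 0.23 and adjusted p-values up to 0.0428. With libraries scaled to total counts only, the call in LIM1215-R1 was lost too, at 0.16 (adjusted p = 0.0217). Between the resistant lines, EXO1 differed by 0.01 on the log2 scale, with a 95% interval from -0.10 to 0.12.

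POLE was lower in LIM1215-R1 cells. Its level was 208.8, 220.6 and 215.5 CPM in the parental line, 178.4, 194.6 and 185.4 CPM in LIM1215-R1 and 208.1, 204.6 and 199.5 CPM in LIM1215-R2. The LIM1215-R1 libraries lay below all others, and the LIM1215-R2 libraries lay between both other lines. The log2 fold change in LIM1215-R1 was -0.21 (SE 0.0464, adjusted p = 0.000746), which is 13.4% less RNA, and it passed in all 9 fits that left out a library. In LIM1215-R2 cells it was -0.07 (adjusted p = 0.245), with a 95% interval from -0.17 to 0.02. The direct difference between both resistant lines was 0.13 on the log2 scale and did not pass (adjusted p = 0.0604).

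POLD1, the other replicative polymerase, was at 91.6, 106.7 and 106.2 CPM in the parental line, 92.3, 101.7 and 101.3 CPM in LIM1215-R1 and 102.9, 101.3 and 103.7 CPM in LIM1215-R2 libraries. The 3 lines overlapped, and the lowest parental and the lowest LIM1215-R1 library set the spread. The log2 fold changes were -0.04 (95% interval -0.17 to 0.08, adjusted p = 0.631) and 0.02 (95% interval -0.11 to 0.14, adjusted p = 0.878).

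PMS1 differed between the resistant lines. Its level was 38.2, 29.5 and 35.7 CPM in the parental line, 33.7, 29.4 and 34.2 CPM in LIM1215-R1 and 43.2, 48.6 and 39.8 CPM in LIM1215-R2. Every LIM1215-R2 library lay above the other 6, which overlapped. The log2 fold change in LIM1215-R2 against parental was 0.34 (SE 0.0869, adjusted p = 0.00276), an increase of 26.8%, and against LIM1215-R1 it was 0.43 (SE 0.0877, adjusted p = 0.00102), an increase of 35.2%. Against parental the call was lost without parental replicate 2 (0.25, adjusted p = 0.0188), without R2 replicate 1 (0.35, adjusted p = 0.0104) and without R2 replicate 2 (0.26, adjusted p = 0.0442). Against LIM1215-R1 it was lost without R2 replicate 2 only (0.36, adjusted p = 0.0239). In LIM1215-R1 against parental PMS1 gave -0.09 (adjusted p = 0.476).

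PMS2, the nicking MutL subunit, was at 20.7, 17.3 and 20.4 CPM in the parental line, 19.9, 20.0 and 20.0 CPM in LIM1215-R1 and 23.0, 20.8 and 22.1 CPM in LIM1215-R2. The LIM1215-R2 libraries lay above those of both other lines by a small margin. The log2 fold changes were 0.03 (adjusted p = 0.850) and 0.17 (adjusted p = 0.150), with a 95% interval from -0.01 to 0.34 for LIM1215-R2. PMS2 shares long stretches with copies elsewhere in the genome, so its counts are uncertain. Its copies PMS2CL, at 2.49, 2.76 and 3.28 CPM in the 3 lines, and PMS2P1, at 8.09, 8.48 and 8.80 CPM, passed no test.

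MLH3, the MutL subunit of crossing over, was at 27.7, 27.6 and 29.5 CPM in the parental line, 24.8, 22.7 and 25.2 CPM in LIM1215-R1 and 30.6, 28.6 and 24.6 CPM in LIM1215-R2. The LIM1215-R1 libraries lay below the parental ones, with a log2 fold change of -0.22 (SE 0.0841) that missed the threshold at an adjusted p of 0.0383. LIM1215-R2 spanned the parental levels and overlapped LIM1215-R1, at -0.02 against parental (adjusted p = 0.908).

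MSH6 was at 159.0, 155.0 and 158.3 CPM in the parental line, 146.5, 136.4 and 146.3 CPM in LIM1215-R1 and 153.5, 160.3 and 159.8 CPM in LIM1215-R2. The LIM1215-R1 libraries were the 3 lowest, and the other lines overlapped. The log2 fold change of -0.14 (SE 0.0479) in LIM1215-R1 missed the threshold (adjusted p = 0.0240), but passed with libraries scaled to total counts only (-0.17, adjusted p = 0.00558). In LIM1215-R2 cells the value was 0.00 (adjusted p = 0.973), with a 95% interval from -0.09 to 0.10.

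MSH3 was at 23.1, 20.9 and 21.4 CPM in the parental line, 25.2, 21.4 and 24.1 CPM in LIM1215-R1 and 27.6, 25.9 and 23.3 CPM in LIM1215-R2. The LIM1215-R2 libraries lay just above the parental ones, and LIM1215-R1 overlapped both. The log2 fold changes were 0.11 (adjusted p = 0.366) and 0.23 (adjusted p = 0.0423), neither past the threshold.

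The libraries of both groups did not overlap for 4 members in LIM1215-R1 and 5 in LIM1215-R2, each set against parental, and for 4 between the resistant lines, where 44.0%, 42.8% and 28.0% of all genes tested did not overlap. At an unadjusted p under 0.05 stood 4, 3 and 4 members, and 43.1%, 39.8% and 24.6% of all genes.

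**Figure D2:**
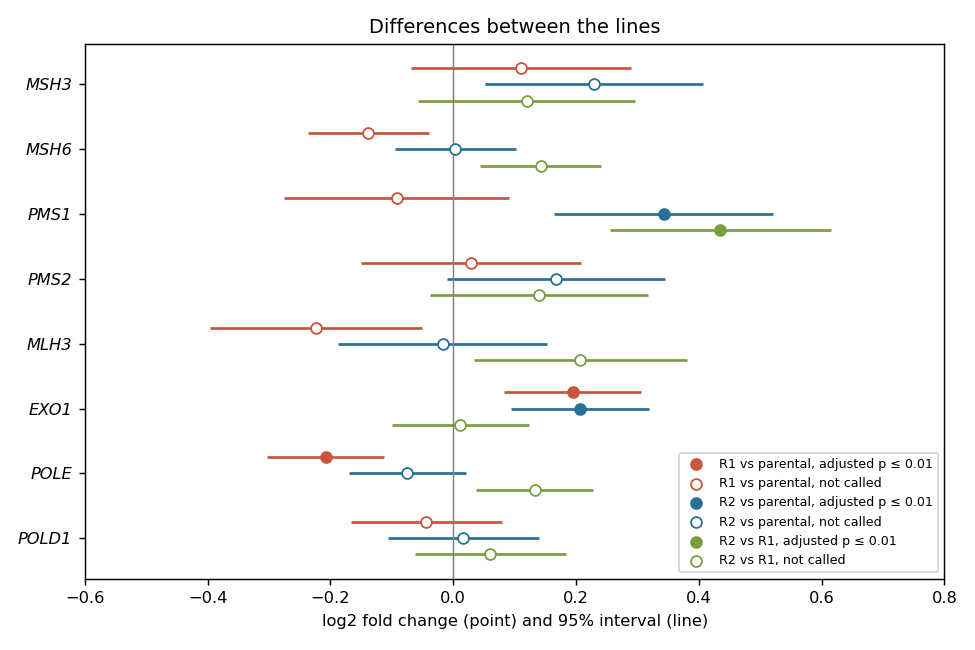
Log2 fold changes (horizontal axis, points) with 95% intervals (lines) of the 8 genes for each resistant line against the parental one and for LIM1215-R2 against LIM1215-R1, with filled points for an adjusted p of at most 0.01. The 5 filled points are EXO1 in both resistant lines, POLE in LIM1215-R1, and PMS1 in LIM1215-R2 against parental and against LIM1215-R1. The last of these lies farthest from 0, at 0.43.

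Ratios of counts between members that do related work do not depend on the scaling of libraries. They were computed after the levels had been seen. The ratio of MSH3 to MSH6 was 0.145, 0.135 and 0.135 in the parental libraries, 0.172, 0.157 and 0.165 in LIM1215-R1, and 0.180, 0.162 and 0.145 in LIM1215-R2. All resistant libraries lay above the parental ones, the lowest LIM1215-R2 library barely so. The mean ratio was 0.139 ± 0.00602 (SD, n = 3) in parental cells, 0.165 ± 0.00759 in LIM1215-R1 and 0.162 ± 0.0171 in LIM1215-R2, a log2 difference of 0.25 and 0.22. The exact permutation test, two-sided, gave p = 0.1 for both, adjusted p = 0.18 over 9 ratio tests, and 0.1 is the smallest p that 3 against 3 libraries allow. With 1 library left out, the differences lay between 0.22 and 0.28 in LIM1215-R1 and between 0.15 and 0.30 in LIM1215-R2, where the lowest was without R2 replicate 1.

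The ratio of POLE to POLD1 was 2.13 ± 0.135 in parental cells, 1.89 ± 0.0550 in LIM1215-R1 and 1.99 ± 0.0553 in LIM1215-R2 (SD, n = 3 each). Neither resistant line overlapped parental, with log2 differences of -0.17 and -0.09 (exact permutation p = 0.1, adjusted p = 0.18 for both). Without parental replicate 1 the LIM1215-R2 difference was -0.04, and the differences with 1 library left out lay between -0.20 and -0.11 in LIM1215-R1 and between -0.13 and -0.04 in LIM1215-R2. Both directions turned once each library's trends on base composition were removed, to 0.03 and 0.05. The ratio of PMS1 to PMS2 was 1.77 ± 0.0685, 1.63 ± 0.133 and 2.01 ± 0.287 in the same order. The resistant lines did not overlap each other in it, at a log2 difference of 0.30 (exact permutation p = 0.1, adjusted p = 0.18), and both overlapped parental. That difference was 0.18 without R2 replicate 2 and lay between 0.18 and 0.37 with any 1 library left out.

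**Figure D3:**
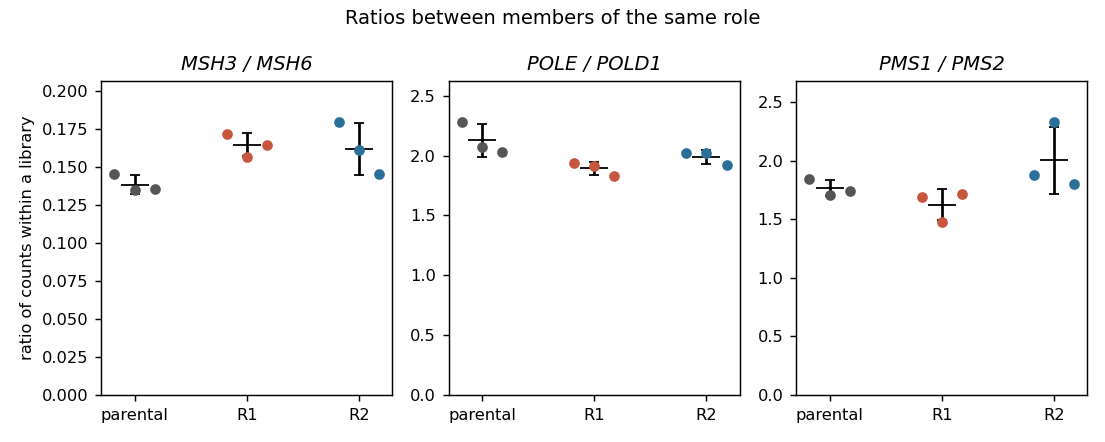
Ratios of counts within each library (vertical axes, from 0) of MSH3 to MSH6, POLE to POLD1 and PMS1 to PMS2 in the 3 libraries of each line, with mean and SD. The MSH3 to MSH6 ratio is between 0.135 and 0.145 in parental and between 0.145 and 0.180 in resistant libraries.

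The libraries differed in base composition within each line and between lines, whose ranges overlapped. The median log2 deviation from a gene's mean over all libraries was compared between 3771 genes of at least 55% GC and 3256 genes under 42% GC. The difference, rich minus poor, was -0.17, 0.08 and -0.13 in the parental libraries, -0.03, 0.26 and 0.10 in LIM1215-R1 and -0.10, -0.08 and 0.07 in LIM1215-R2. PMS1, whose transcript has 36.4% GC, was lowest in parental replicate 2 and R1 replicate 2, the libraries with the highest values of their lines. POLD1, with 64.8% GC, was lowest in parental replicate 1 and R1 replicate 1, which had the lowest values of theirs. In LIM1215-R2, PMS1 was lowest in replicate 3, which had the highest value, and POLD1 was lowest in replicate 2, which did not have the lowest.

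With the trends of every library on GC content and transcript length removed, POLD1 became lower in both resistant lines, at -0.28 (adjusted p = 3.09e-07) in LIM1215-R1 and -0.16 (adjusted p = 0.00175) in LIM1215-R2, where its direction turned. POLE was then lower in both, at -0.25 (adjusted p = 4.28e-08) and -0.11 (adjusted p = 0.00994), and MSH3 passed in LIM1215-R2 cells at 0.26 (adjusted p = 0.00332). EXO1 and PMS1 kept their calls, with EXO1 at 0.22 in both lines and PMS1 at 0.35 in LIM1215-R2 against parental and at 0.34, down from 0.43, against LIM1215-R1. The number of members that passed rose from 2 to 3 in LIM1215-R1, from 2 to 5 in LIM1215-R2 and from 1 to 3 between the resistant lines, where MSH6 (0.14, adjusted p = 0.00634) and POLE (0.14, adjusted p = 0.00213) joined PMS1. Over all genes tested, 32.6%, 30.6% and 10.0% passed in these fits. The call on POLD1 thus depended on this correction. The correction takes out each library's whole trend, including any part that differs between the lines and cannot be told apart from the line. GC content and length were known for 86.3% of the genes tested, all 8 members included.

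**Figure D4:**
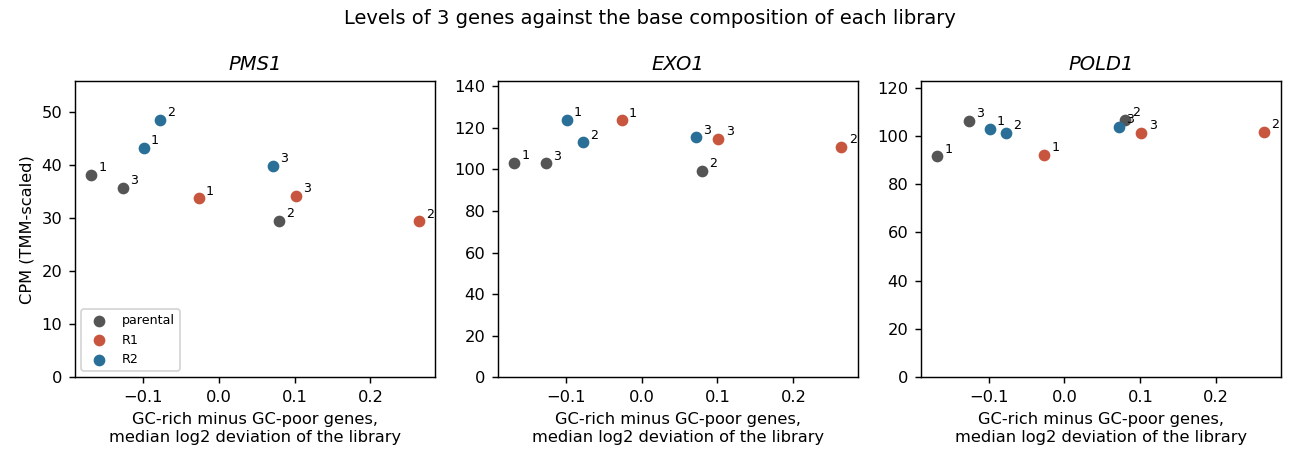
Levels of PMS1, EXO1 and POLD1 in CPM (vertical axes, from 0) against the base composition of each library, measured as the median log2 deviation of GC-rich minus GC-poor genes (horizontal axes), with replicate numbers beside the points. PMS1 is lowest in parental replicate 2 and R1 replicate 2, at 29.5 and 29.4 CPM, and POLD1 is lowest in parental replicate 1 and R1 replicate 1, at 91.6 and 92.3 CPM.

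Before the removal of base composition trends, few of the genes that work beside the members passed. Of 24 other genes of replication and mismatch repair, 2 passed in LIM1215-R1 cells, 3 in LIM1215-R2 cells and 0 between the resistant lines, beside 27.3%, 23.8% and 7.16% of all genes. Between the resistant lines 3 had an unadjusted p under 0.05 and DESeq2 called 0. Among 6 accessory subunits of polymerases delta and epsilon, POLD3 was lower in LIM1215-R1 cells, at -0.25 (adjusted p = 0.00308), a call lost without parental replicate 1, parental replicate 3, R1 replicate 2 or R1 replicate 3, and 0 of 6 passed in LIM1215-R2 by edgeR or DESeq2, with 2 at an unadjusted p under 0.05. Among the 4 subunits of polymerase alpha and primase, which start new strands, POLA1 was higher in LIM1215-R2 cells at 0.27 (adjusted p = 0.00203), lost without parental replicate 2 or R2 replicate 2. None of the 6 genes of the PCNA clamp and its RFC loader passed in either line by edgeR or DESeq2, and 0 of them had an unadjusted p under 0.05 against parental. Among 8 other repair factors, HMGB1, a chromatin protein that helps mismatch repair in vitro, was lower in LIM1215-R1 at -0.37 (adjusted p = 1.92e-07) and in LIM1215-R2 at -0.34 (adjusted p = 8.90e-07). With base composition trends removed, the change in LIM1215-R1 was -0.23. HMGB1 has many processed copies in the genome, so its counts are uncertain. MCM9, a helicase that takes part in mismatch repair, was higher in LIM1215-R2 cells at 0.29 (adjusted p = 0.00214), lost without parental replicate 2 or R2 replicate 1. With base composition trends removed, 8 of the 24 genes passed in LIM1215-R1 cells, where 32.6% of all genes did. In that line they thus no longer passed less often than genes in general. In LIM1215-R2, where 30.6% of all genes passed in that fit, HMGB1, POLA1 and MCM9 kept their calls.

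Of 12 other DNA polymerase genes, 3 passed in each line against parental, where 27.3% and 23.8% of all genes did, and 4 between the lines, where 7.16% did. POLI, a translesion polymerase, was at 13.2, 12.0 and 16.1 CPM in the parental line, 9.75, 7.41 and 8.76 CPM in LIM1215-R1 and 14.6, 13.3 and 11.8 CPM in LIM1215-R2. The LIM1215-R1 libraries lay below all others, and the change against parental was -0.68 on the log2 scale (SE 0.127, adjusted p = 9.19e-05). POLH, which copies past ultraviolet lesions, was at 44.7, 44.6 and 44.3 CPM in the parental line, 59.1, 58.9 and 53.3 CPM in LIM1215-R1 and 45.3, 45.2 and 39.5 CPM in LIM1215-R2. It was higher in LIM1215-R1 at 0.36 (SE 0.0667, adjusted p = 9.24e-05) and gave -0.04 in LIM1215-R2 (adjusted p = 0.727).

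MAD2L2, a subunit of polymerase zeta, was higher in both lines, at 0.52 (adjusted p = 2.37e-05) and 0.36 (adjusted p = 0.00172), the latter lost without parental replicate 1 or R2 replicate 1. With base composition trends removed, the former was 0.34. POLK, another translesion polymerase, was higher in LIM1215-R2 at 0.27 (adjusted p = 0.00850), a call lost in 6 of the 9 fits without a library, with DESeq2 and with total counts. POLG, the mitochondrial polymerase, was higher in LIM1215-R2 at 0.20 (adjusted p = 0.00599), a call lost in 5 of the 9 fits without a library, with total counts and with base composition trends removed. Between the resistant lines, POLI, POLQ and REV3L were higher and POLH was lower in LIM1215-R2.

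The meiotic MutS homologue MSH4 had 18 to 26 counts in the parental libraries, 20 to 22 in LIM1215-R1 and 41 to 49 in LIM1215-R2. Its mean level was 1.37, 1.31 and 2.85 CPM in this order, and LIM1215-R2 did not overlap the other lines. The log2 fold change in LIM1215-R2 was 1.05 (SE 0.225, adjusted p = 0.000514) against parental. MSH5, its partner, was at 0 counts in all 9 libraries.

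**Figure D5:**
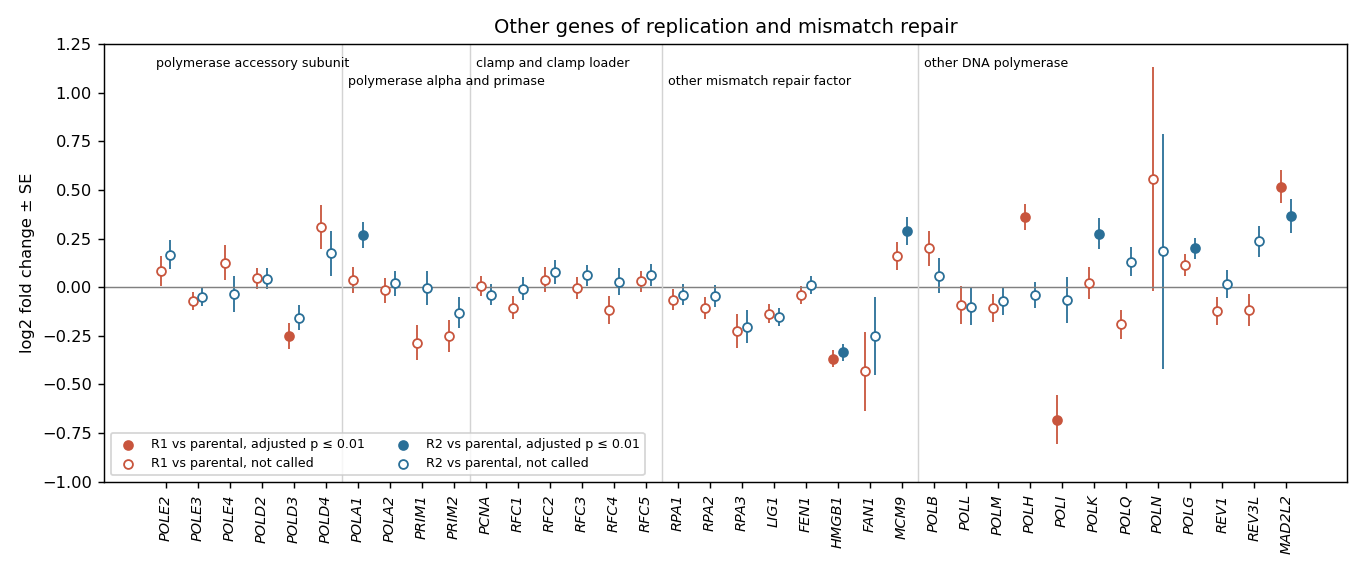
Log2 fold changes with SE (vertical axis) of the other genes of replication and mismatch repair and of the other DNA polymerases (horizontal axis, grouped by role) in both resistant lines against parental cells, with filled points for an adjusted p of at most 0.01. None of the 6 clamp and loader genes is filled, and POLI and POLH are filled in LIM1215-R1 cells only, where they stand at -0.68 and 0.36.

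Several members are expressed mainly in dividing cells, and genes of S phase and proliferation moved in both directions. Of 21 such genes, 9 passed in LIM1215-R1 cells, 5 higher and 4 lower, and 9 in LIM1215-R2 cells, 6 higher and 3 lower, with medians of -0.02 and -0.01 on the log2 scale, and 27.3% and 23.8% of all genes passed. Between the resistant lines 0 passed by edgeR or DESeq2, with 4 at an unadjusted p under 0.05. RRM2, a subunit of the enzyme that makes deoxynucleotides, was higher at 0.44 in both lines, and CDC6, which loads the replicative helicase, at 0.28 and 0.37. MKI67, a marker of cycling cells, was higher at 0.20 and 0.31, and MCM5, a helicase subunit, was lower at -0.38 and -0.26. The part of these changes in the values of the members was not tested.

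The 4 genes described here that share a start or bases with a member did not pass at an adjusted p of 0.01 in the fit to all 9 libraries. ORMDL1, opposite PMS1, was at 56.1, 56.1 and 59.9 CPM in parental cells and the R1 and R2 lines, with an adjusted p of 0.303 for LIM1215-R2 against parental, where PMS1 passed. PXMP2, opposite POLE, was at 25.3, 20.3 and 20.6 CPM, with log2 fold changes of -0.31 (adjusted p = 0.0185) and -0.29 (adjusted p = 0.0325). With base composition trends removed it passed in both lines, at -0.45 (adjusted p = 1.24e-05) and -0.31 (adjusted p = 0.00174). It also passed in LIM1215-R1 with total counts, with no filter, and without parental replicate 1 or R1 replicate 2, and in LIM1215-R2 without parental replicate 1. AIMP2, opposite PMS2 at a distance of 166 bases, was at 62.9, 69.5 and 68.7 CPM. FBXO11 shares 3182 bases with MSH6 on the other strand and was at 86.7, 77.2 and 79.3 CPM. The log2 fold changes of FBXO11 against parental were -0.17 (adjusted p = 0.0196) in LIM1215-R1 and -0.13 (adjusted p = 0.0792) in LIM1215-R2. Reads were counted by strand.

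Windows of 2 Mb to either side of a member were limited to other tested genes that averaged 10 counts or more per library. Around PMS1, the median log2 fold change of 20 such genes was 0.13 in LIM1215-R1 and 0.16 in LIM1215-R2 relative to parental cells. Between the resistant lines it was 0.09. Of these genes, 7 were higher and 0 lower in LIM1215-R2 against parental, where 12.3% of all genes tested were higher and 11.6% lower. Around MSH3, the median of 21 genes was -0.18 and -0.13, with 6 lower and 0 higher in LIM1215-R1. Over all genes tested, 13.4% were lower and 14.0% higher in LIM1215-R1. These shares include genes of fewer counts than the windows allow, and shares at the same limit were not computed. Around POLE, the median of 26 genes was -0.09 and 0.01, with 8 lower and 1 higher in LIM1215-R1 and 7 lower and 1 higher in LIM1215-R2. These windows were chosen after the levels had been seen, and gene copy number was not measured here. The windows of the other members were uneven too in LIM1215-R1. Around MSH6, 5 of 17 genes were higher and 2 lower, and around PMS2, 1 of 32 was higher and 6 lower. Around MLH3, 2 of 42 were higher and 10 lower, and around POLD1, 12 of 90 were higher and 18 lower. The EXO1 window held only 3 genes above the count limit, 0 higher and 1 lower.

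Across the 9 libraries the members did not move as 1 group. Of their 28 pairs, the highest Pearson r of log2 levels was 0.81, for MSH3 and EXO1, and the lowest was -0.69, for EXO1 and POLE. Among 13411 genes that averaged 10 counts or more, those most like EXO1 were EIF2S3 and NSMAF, with r of 0.99 and 0.98. Those most like POLE were HTR1D and ZFHX3, with r of 0.98 and 0.96, and those most like PMS1 were UBA6 and EDEM3, with r of 0.98 and 0.97. These values describe 9 libraries of 3 lines, which share line and base composition, and carry no test.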

How the data were processed

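Poly(A) RNA of the parental and both resistant LIM1215 lines was measured in 9 libraries. The authors aligned paired reads to hg38 with STAR, counted the sense strand per gene with HTSeq 0.9.1 and deposited raw counts for each library. The gene annotation is not given in the sources used here. Counts were not normalized by the authors, and samples were grouped by the line named in the labels.

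Genes with at least 10 counts over all libraries were tested in R 4.3.3 with edgeR 4.0.16 (TMM scaling, quasi-likelihood F test, 1 fit of 3 groups, Benjamini-Hochberg adjustment over all genes tested). A gene passed at an adjusted p of at most 0.01. SEs were derived from the test statistic. Ratios were compared by exact permutation tests. The fit was tested on simulated data. Depth was 13737416 to 18725014 counts per library, which leaves 239 or more counts per member and library.

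All 8 members are named. Of each further list except the cell type markers, at most the 4 genes with the largest change among those that passed in a resistant line against parental were named, and POLG, POLQ and REV3L were named after their values were seen. Genes sharing a start within 1000 bases or bases with a member, PMS2 copies and, for members that passed, the 2 most similar genes were also named, as far as they had counts, except for an item that is not reported here. Members and lists were chosen with earlier results of these data known.

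Alternatives were DESeq2 1.42.0 and its size factors, total counts, other filters, fits to 6 libraries, a block for replicate number, the omission of each library in turn, and removal of trends on GC content and length of GENCODE release 44 transcripts. Positions and promoter sequences are from RefSeq.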

Additional observations from a re-analysis of the deposited data

Results flagged for a closer look

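The direct test between LIM1215-R2 and LIM1215-R1 passed for 6 of the genes described, so their difference from parental is not the same in both lines (edgeR quasi-likelihood F test, 3 libraries each, adjusted over all genes tested). Of all genes tested, 7.16% passed it. The count of 6 is not a result about these genes, because POLQ and REV3L were named after their values were seen. PMS1 was higher in LIM1215-R2 by 0.43 on the log2 scale (adjusted p = 0.00102), and MSH4 by 1.12 (adjusted p = 0.00117). POLI was higher by 0.61 (adjusted p = 0.00140), a call lost without R1 replicate 2, R2 replicate 1 or R2 replicate 2, with adjusted p-values up to 0.0233. POLQ, a polymerase that joins broken ends, was higher by 0.32 (adjusted p = 0.00384), and REV3L, the catalytic subunit of polymerase zeta, by 0.35 (adjusted p = 0.00356), or 0.23 with base composition trends removed. Both calls were lost without R1 replicate 2, R1 replicate 3, R2 replicate 1 or R2 replicate 2, with adjusted p-values up to 0.0410 and 0.0454. POLH had a log2 difference of -0.40, lower in LIM1215-R2 (adjusted p = 0.000127). All LIM1215-R2 libraries lay on the same side of all LIM1215-R1 libraries for each of these 6 genes, and for 28.0% of all genes tested.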

How the results depend on the processing

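Past the threshold were 2, 2 and 1 members in LIM1215-R1, LIM1215-R2 and between the resistant lines. The counts were 0, 0 and 0 at the DEG threshold. With GC and length trends removed they were 3, 5 and 3, where 32.6%, 30.6% and 10.0% of all genes passed. At an adjusted p of 0.05 they were 4 in LIM1215-R1 and 2 between the resistant lines. In LIM1215-R2, MSH3 (adjusted p = 0.0423, edgeR quasi-likelihood F test) joined EXO1 and PMS1 at 0.05. The share of all genes at 0.05 was not computed. Of the 24 other genes, against 2, 3 and 0, LIM1215-R1 gave 5 with total counts, 8 with trends removed, 7 at an adjusted p of 0.05 and 0 at the DEG threshold. LIM1215-R2 gave 0 at the DEG threshold and 1 further gene at 0.05 (adjusted p = 0.0132). The comparison of resistant lines gave 1 without a filter, 2 with trends removed and 2 at 0.05. Leaving out each library gave 1 to 2, 0 to 2 and 0 to 1 members, and 1 to 5, 1 to 4 and 0 to 2 of the 24 genes. The replicate number as a block left 2, 2 and 1 members and gave 4, 4 and 2 of the 24 genes. Same-numbered libraries had deviations correlated at -0.11 to 0.27, and not every one correlated best with its own number, so the numbers were not taken as pairs.

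Log2 values turned direction as follows. With trends removed, PMS1 in LIM1215-R1 came to 0.00077, MLH3 and POLD1 in LIM1215-R2 to 0.030 and -0.16, EXO1 between the resistant lines to -0.0056, and the POLE to POLD1 ratio in LIM1215-R1 and LIM1215-R2 to 0.027 and 0.049. With total counts, PMS2 in LIM1215-R1 came to -0.0062 and MSH6 in LIM1215-R2 to -0.013. With 1 library left out, PMS2 lay between -0.043 and 0.073 and POLD1 between -0.11 and 0.0018 in LIM1215-R1. In LIM1215-R2, MSH6 lay between -0.0072 and 0.024, MLH3 between -0.089 and 0.063, POLD1 between -0.052 and 0.052 and POLH between -0.072 and 0.020, and EXO1 between the resistant lines between -0.029 and 0.057. The cause was not tested. The ratio alternatives were added after the data were seen. At these depths and 3 libraries a line, many differences have 95% intervals wider than the differences themselves. In LIM1215-R2 these ran from 0.05 to 0.41 for MSH3, which leaves out 0, and from -0.01 to 0.34 for PMS2. Some that passed were as wide for their size, such as EXO1 in LIM1215-R1, from 0.08 to 0.31.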
